A study of Mus musculus with 58 samples.

Results

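Kupffer cells were compared with monocyte-derived macrophages from the livers of mice with early bile duct ligation, gene by gene. The comparison rests on 8 of the 58 libraries of the study, those whose title gives CBDL2w and whose source name is Kupffer cell (KC, n = 4 libraries) or monocyte-derived macrophage (MoMF, n = 4). CBDL2w stands for common bile duct ligation at 2 weeks, which the design text calls the onset of cholestatic injury. All mice were of strain 129SV. Side by side with these stand the same cell types in controls (Sham6w, 6 weeks, 4 KC and 3 MoMF libraries) and in advanced ligation (CBDL6w, 6 weeks, 4 and 4 libraries), and the monocytes (Mo) of the CBDL2w livers (4 libraries). No other treatment is given for these groups. The remaining libraries of the study, from colitis groups and other monocytes, entered only the shared estimate of the spread. Sorting gates were not stated in the sources used here. Pooling of some replicates is stated in the design text, and among the groups named here it concerns the control MoMF, where 2 of the 3 libraries carry labels joining several replicate numbers. Each p-value rests on the spread among libraries within groups, estimated over all 58 libraries and not from the compared ones alone. No label says that replicates were separate animals, so that spread may be technical. Recovered reads per library numbered 339462 to 452668 in KC and 297866 to 461071 in MoMF of CBDL2w, over 11902 to 12900 and 11275 to 12889 detected genes.

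Kupffer cells are the resident macrophages of the liver. They line the sinusoids, take up particles, dying cells and aged red cells from the blood, recycle iron, make complement proteins, and depend on the liver X receptor alpha, Nr1h3. Monocyte-derived macrophages come from blood monocytes that enter the liver through the chemokine receptor Ccr2; in injury they are known for inflammatory cytokines and for matrix-related proteins, and with time they can take on genes of Kupffer cells.

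The labels were checked against marker lists, as shares of a library's reads. The members of these and the other lists were chosen with earlier results of these data known. A list of 18 Kupffer cell identity genes took 0.572% to 0.737% of the reads in KC and 0.0809% to 0.136% in MoMF, overlapping the 0.0479% to 0.149% in Mo. Macrophage genes common to many tissues (15 genes) took 0.926% to 1.02% in KC, 0.397% to 0.585% in MoMF and 0.207% to 0.318% in Mo. Classical monocyte genes (21 genes) ran the other way, with 0.231% to 0.304% in KC, 0.65% to 0.777% in MoMF and 1.53% to 1.65% in Mo. The KC and MoMF libraries did not overlap in any of these lists, and MoMF lay between KC and Mo in the last 2. Patrolling monocyte genes (16 genes), also checked, did overlap, with 0.307% to 0.401% in KC, 0.318% to 0.444% in MoMF and 0.268% to 0.344% in Mo. In bulk RNA, fewer cells of a type and less RNA per cell cannot be told apart. Among other cells, endothelial markers took 0.0253% to 0.0424% in KC and 0.00974% to 0.0222% in MoMF, and hepatocyte markers 0.0412% to 0.0599% and 0.0205% to 0.0266%. Conventional dendritic cell markers took 0.0764% to 0.0919% in KC and 0.0606% to 0.072% in MoMF. Most of them went the other way gene by gene. Of 7 tested (14 listed), 2 had a positive log2 difference, KC minus MoMF (median -1.06), with 1 called higher in KC and 1 in MoMF. Natural killer cell markers took 0.000589% to 0.00145% in KC and 0.00499% to 0.0154% in MoMF, and B and plasma cell markers 0.00204% to 0.00811% and 0.00633% to 0.0189%. Neutrophil markers overlapped (0.00434% to 0.00641% and 0.00403% to 0.0138%), and T cell, stellate cell and bile duct cell markers stayed at or below 0.00366% in every KC and MoMF library.

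**Figure D1:**
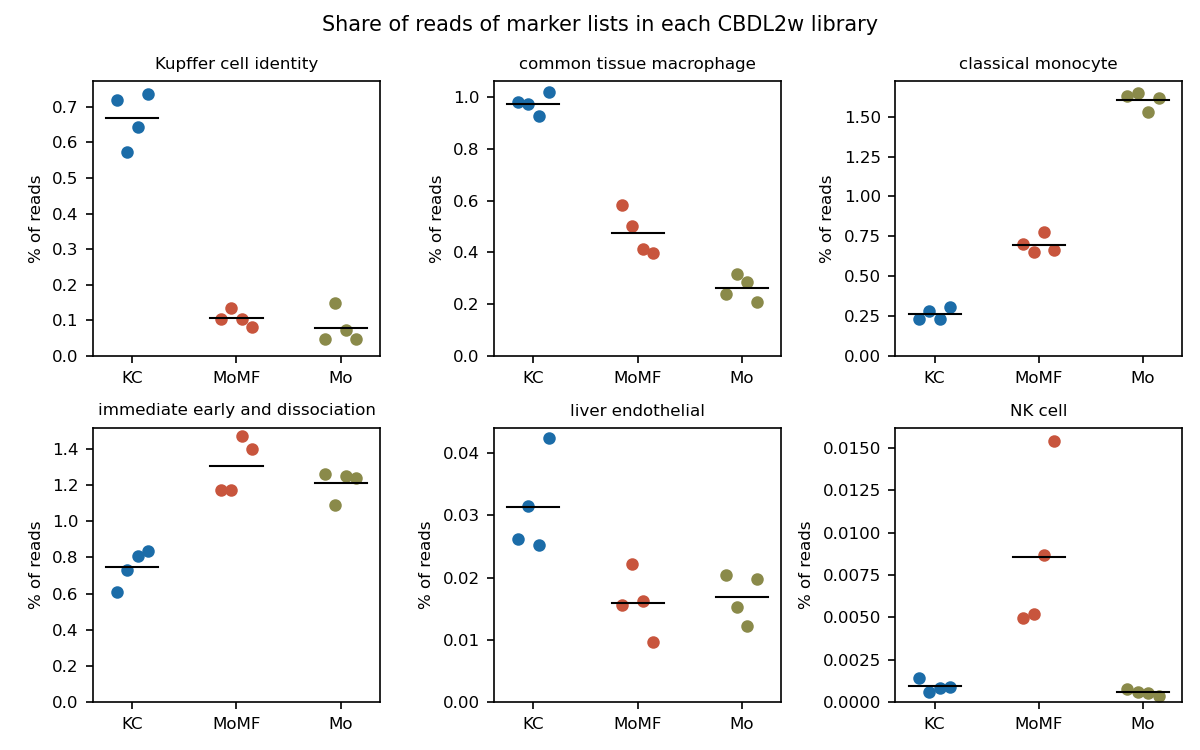
Share of reads (%, linear axes from 0) of 6 marker lists in each CBDL2w library of KC, MoMF and monocytes (Mo); points are libraries and bars the mean of 4. The 4 KC libraries lie at 0.572% to 0.737% for Kupffer cell identity genes, above all MoMF libraries at 0.0809% to 0.136%, and the monocyte list runs in the opposite order.

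Of 7555 genes tested, 501 (6.63%) differed between KC and MoMF at an adjusted p under 0.05. The test was limma on log2(normalized count + 1), two-sided, with Benjamini-Hochberg adjustment. Kupffer cells were higher in 289 genes (3.83%) and MoMF in 212 (2.81%). In 266 and 186 of these every library of one cell type lay above every library of the other. Such separation held in 625 (8.27%, KC above) and 443 (5.86%, MoMF above) of all 7555 genes, called or not, and a call favours it. The median size of a called difference was 1.71 on the log2 scale, and 119 genes higher in KC and 61 higher in MoMF differed by at least 2. Over all genes tested the median log2 difference, KC minus MoMF, was 0.043. On simulated data the test recovered 20% of genes changed 2-fold and 55.7% of those changed 4-fold, so many genes with smaller gaps would not be called. Without the MoMF library of replicate 4 the count of called genes was 322, and with the other 7 libraries left out one at a time it was 347 to 479.

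**Figure D2:**
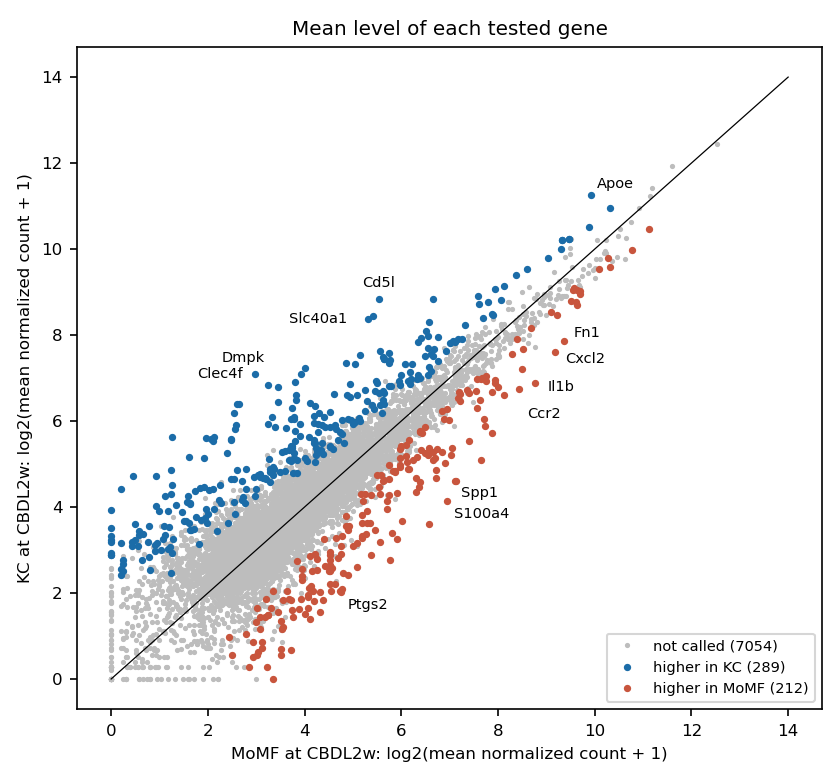
Mean level of each of the 7555 tested genes in MoMF (x) and KC (y) of CBDL2w, as log2(mean normalized count + 1), with the line of equal levels. The 289 genes higher in KC (blue) include Clec4f, Cd5l and Apoe, and the 212 higher in MoMF (red) include S100a4, Ccr2, Il1b and Spp1.

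Most genes that define Kupffer cells were higher in KC. All 18 Kupffer cell identity genes were tested and 16 were higher in KC, with a median log2 difference of 3.37. Clec4f, a galactose-binding lectin used as a Kupffer cell marker (chr6:83644542-83656187, minus strand, GRCm38), stood at 133, 97.8, 99.7 and 127 normalized counts in the 4 KC libraries and at 10.1, 11.9, 9.81 and 1.99 in the 4 MoMF libraries. That is a log2 difference of 3.79 ± 0.66 (SE; adjusted p = 5.92e-05, limma), with no overlap. Cd5l, a secreted scavenger protein that keeps macrophages alive, had 486, 348, 429 and 552 in KC and 47.2, 61.9, 42.2 and 29.9 in MoMF (log2 3.32 ± 0.5, adjusted p = 6.03e-06). Vsig4, the complement receptor that captures blood-borne bacteria, had 166, 110, 116 and 152 against 10.7, 23.9, 14.7 and 6.97 (3.29 ± 0.57, adjusted p = 5.15e-05). Timd4, a phosphatidylserine receptor for dying cells, had 53.1, 34.3, 44.7 and 55.2 against 3.78, 5.96, 1.96 and 0.995 (3.65 ± 0.59, adjusted p = 1.87e-05). In each of these genes the lowest KC library lay well above the highest MoMF library. Clec4f, Cd5l and Vsig4 are also among the 12 largest differences toward KC, a set whose rule required no overlap.

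The start sites of 3 of these genes are shown as examples. Each line gives the 250 bases before the RefSeq start site (GRCm38.p6), 5′ to 3′ on the gene's strand. Capitals mark matches, on either strand, to GAGGAA (the core of PU.1 sites) in Cd5l and Vsig4 and to AGGTCA (a nuclear receptor half-site) in Timd4. The windows are chr3:87357631-87357880 (plus) for Cd5l, chrX:96293439-96293688 (minus) for Vsig4 and chr11:46810549-46810798 (plus) for Timd4.
Cd5l: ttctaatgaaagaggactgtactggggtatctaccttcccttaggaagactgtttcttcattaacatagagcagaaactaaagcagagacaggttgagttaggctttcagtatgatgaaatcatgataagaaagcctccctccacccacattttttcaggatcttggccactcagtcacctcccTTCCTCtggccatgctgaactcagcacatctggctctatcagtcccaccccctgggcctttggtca
Vsig4: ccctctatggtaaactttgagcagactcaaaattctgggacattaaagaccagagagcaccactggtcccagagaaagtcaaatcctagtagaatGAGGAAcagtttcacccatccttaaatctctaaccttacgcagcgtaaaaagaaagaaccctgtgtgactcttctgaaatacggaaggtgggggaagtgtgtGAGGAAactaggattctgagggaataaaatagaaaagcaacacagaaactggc
Timd4: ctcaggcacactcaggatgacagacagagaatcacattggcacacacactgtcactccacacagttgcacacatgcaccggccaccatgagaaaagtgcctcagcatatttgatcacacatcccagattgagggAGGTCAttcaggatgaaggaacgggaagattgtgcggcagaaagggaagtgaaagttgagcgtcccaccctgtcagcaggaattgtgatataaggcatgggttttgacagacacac
Vsig4 holds 2 matches, ending 149 and 47 bases before the start site, Cd5l 1 match at 60 bases and Timd4 1 at 110 bases. A match is a string of letters and not a shown binding site. The marked motif differs between the genes, so no shared feature is shown. AGGTCA stood in this window in 13.0% of genes higher in KC and 13.1% of those higher in MoMF, and GAGGAA in 27.3% and 32.7%.

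The rest of the Kupffer cell list followed. Clec1b, a lectin-like receptor best known from platelets, gave the largest fitted difference of the list: 55.8, 30.9, 61 and 46.3 in KC and 0.63, 2.98, 0.981 and 0.995 in MoMF (4.41 ± 0.49, adjusted p = 1.22e-08). It shares part of its locus, on the same strand, with Clec9a. Platelet markers took 0.022% to 0.0504% of the reads in KC and 0.0101% to 0.0211% in MoMF, with Itga2b and Gp1bb at 0 in all 8 libraries. Pf4, the 1 of the 4 measured platelet markers that was tested, did not pass (0.96, adjusted p = 0.351), and the part of platelet RNA in Clec1b was not tested. Marco, a scavenger receptor for bacteria, differed by 3.88 ± 0.64, the folate receptor Folr2 by 3.77 ± 0.65, the interleukin-18 inhibitor Il18bp by 3.98 ± 0.55, the lectin Cd207 by 3.31 ± 0.48 and the fatty acid binding protein Fabp7 by 3.46 ± 0.65 (largest adjusted p of the 5, 0.00021). Among transcription factors of Kupffer cells, Nr1h3 had 88.9, 54.1, 121 and 91.9 in KC and 20.1, 8.95, 16.7 and 6.97 in MoMF (2.72 ± 0.58, adjusted p = 0.00103). Spic, which drives the iron-recycling programme, had 17.4, 37.8, 18.9 and 25.4 against 10.1, 8.95, 4.9 and 2.99 (1.79 ± 0.51, adjusted p = 0.0207). The call for Spic was lost without KC replicate 2, MoMF replicate 3 or MoMF replicate 4. Id3 did not pass: 113, 127, 164 and 93.2 in KC and 81.8, 101, 135 and 128 in MoMF overlapped (0.15 ± 0.25, adjusted p = 0.85). Nor did Adgre4 (0.72, adjusted p = 0.14).

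Macrophage genes shared by many tissues were also higher in KC, with smaller gaps. Of 15 genes, 11 passed and none was higher in MoMF (median 1.28); 8 passed with libraries scaled to equal totals and 9 with edgeR. Adgre1, the surface receptor stained as a general mouse macrophage marker, had 220, 173, 144 and 152 in KC and 87.5, 49.9, 26.5 and 30.9 in MoMF (1.94 ± 0.31, adjusted p = 1.59e-05). Mertk, a receptor for dying cells, had 105, 113, 98.8 and 100 against 49.1, 53.7, 23.5 and 21.9 (1.58 ± 0.33, adjusted p = 0.000983). Csf1r, the receptor for the macrophage growth factor, had 513, 409, 435 and 451 against 277, 262, 280 and 242 (0.76 ± 0.18, adjusted p = 0.00336). Each of the 3 was expressed by both cell types, with all KC libraries above all MoMF libraries. The mannose receptor Mrc1 differed by 1.58 ± 0.4, and its call was lost without MoMF replicate 4.

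Complement genes were higher in KC in 8 of 15 tested (18 listed), and none was higher in MoMF (median 1.27). The gene lists share members, so their counts are not separate results. Here Vsig4 and C6 are also Kupffer cell identity genes, and C1qa is also a common macrophage gene. The first component had C1qa at 250, 222, 227 and 278 in KC and 89.4, 89.5, 99 and 55.7 in MoMF (1.57 ± 0.36, adjusted p = 0.00224). Factor B of the alternative pathway, Cfb, had 24.4, 61.8, 64.5 and 38 against 1.26, 5.22, 9.81 and 1.99 (3.28 ± 0.63, adjusted p = 0.000282). The terminal component C6 had 54, 40.3, 30.9 and 55.2 against 3.15, 5.22, 1.96 and 2.99 (3.43 ± 0.59, adjusted p = 5.62e-05). Properdin, Cfp, passed at 1.72 and C4b at 3.26, while C3 (0.31, adjusted p = 0.813) and the receptors C3ar1 (0.26, adjusted p = 0.85) and C5ar1 (0.19, adjusted p = 0.917) did not pass. C4b has a near-identical neighbouring copy and Cfb overlapping annotated genes on the same strand, so the reads of these 2 genes are less certain.

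Receptors for uptake were higher in KC as well. Of 16 scavenger receptor genes all were tested and 8 passed, all higher in KC (median 1.12). Cd163, Marco and Cd5l of this list are also Kupffer cell identity genes. The haemoglobin receptor Cd163 had 119, 101, 81.7 and 136 in KC and 15.7, 5.96, 11.8 and 5.97 in MoMF (3.43 ± 0.58, adjusted p = 4.4e-05), with no overlap, as the rule for the 12 largest required. Msr1 passed at 1.41 and Lrp1 at 1.1, while Cd36 (0.25, adjusted p = 0.926) and Stab1 (-0.01, adjusted p = 1) did not. Of the 14 tested genes for uptake of dying cells (16 listed), 5 were higher in KC and 1 in MoMF. The exception was Anxa1, annexin A1, known for limiting inflammation: 10.5, 14.6, 6.88 and 8.24 in KC and 34.6, 68.6, 35.3 and 33.8 in MoMF (-1.98 ± 0.43, adjusted p = 0.00127). Stab2, also a marker of liver endothelium, had 8.71, 6.01, 6.88 and 12.7 against 2.52, 2.24, 0.981 and 0. Its call was lost without MoMF replicate 4. All 15 endothelial markers, Stab2 among them, were tested, and 3 passed, all higher in KC: Stab2, Cdh5 (2.86) and Pecam1 (1.25). Only 9 of the 15 had a positive difference, with a median of 0.16 and a minimum of -1.12. The part of endothelial RNA in Stab2 was not tested.

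Genes of heme and iron handling were higher in KC in 9 of 18 tested (20 listed), none in MoMF (median 1.1). Slc40a1, Cd163 and Spic of this list are also Kupffer cell identity genes. Slc40a1, ferroportin, which exports iron from the cell, had 395, 293, 316 and 313 in KC and 40.3, 65.6, 26.5 and 22.9 in MoMF (3.16 ± 0.56, adjusted p = 8.36e-05). Hmox1, the enzyme that opens the heme ring, had 168, 233, 208 and 151 against 53.5, 75.3, 45.1 and 35.8 (1.87 ± 0.3, adjusted p = 2.05e-05). The libraries of the cell types were apart in both genes. Blvrb, a biliverdin reductase, differed by 2.45 ± 0.59, and its call was lost without MoMF replicate 4. The ferritin heavy chain Fth1, which stores iron, was high in both: 1101, 1308, 1239 and 1281 in KC and 1531, 1490, 1551 and 1822 in MoMF (-0.37 ± 0.28, adjusted p = 0.556).

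The list of liver X receptor and cholesterol efflux genes had 7 of 14 tested higher in KC (15 listed), none in MoMF (median 1.01). Nr1h3 is on this list and on that of Kupffer cell identity. Apoe, the carrier of exported lipids, had 2075, 2014, 2753 and 3006 in KC and 1075, 910, 1020 and 874 in MoMF (1.33 ± 0.23, adjusted p = 7.95e-05). Pltp, which transfers phospholipids, had 35.7, 51.5, 73.1 and 78.6 against 10.7, 10.4, 6.86 and 5.97 (2.65 ± 0.6, adjusted p = 0.00225). Scd1 passed at 2.69, Apoc1 at 2.45 and lipoprotein lipase, Lpl, at 1.69. The efflux pump Abcg1 passed (0.88, adjusted p = 0.041) and Abca1 did not (1.1, adjusted p = 0.16). Rxra, the partner receptor of Nr1h3, from the list of transcription factors, had 30.5, 33.5, 19.8 and 29.8 in KC and 13.9, 6.71, 0.981 and 1.99 in MoMF (2.5 ± 0.52, adjusted p = 0.000875). Hepatocytes also make several apolipoproteins; Apoa2 and Trf, 2 of 9 tested hepatocyte markers, were higher in KC too, and the part of hepatocyte RNA was not tested.

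Of 24 tested lysosomal genes (25 listed), 8 were higher in KC and 1 in MoMF (median 0.49). Among the proteases, Ctsb had 523, 490, 429 and 466 in KC and 220, 227, 173 and 139 in MoMF (1.35 ± 0.19, adjusted p = 2.45e-06), and Ctsd 172, 166, 142 and 169 against 65.5, 73.8, 25.5 and 44.8 (1.71 ± 0.23, adjusted p = 9.32e-07). In both, the highest MoMF library stayed below every KC library. The lysosomal glycoprotein Creg1 differed by 1.56 ± 0.19 and the protease Lgmn, legumain, by 1.48 ± 0.25. The exception was Gm2a, a ganglioside-binding activator, at -1.12 (adjusted p = 0.00182). The membrane protein Lamp1 (0.44, adjusted p = 0.115) and the protease Ctss (0.16, adjusted p = 0.637) did not pass.

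Enzymes of prostaglandins and leukotrienes split between the cell types: of 12 tested (15 listed), 3 were higher in KC and 2 in MoMF. Ptgs1, the constitutive cyclooxygenase, had 161, 130, 134 and 214 in KC and 41.6, 32.1, 24.5 and 30.9 in MoMF (2.27 ± 0.52, adjusted p = 0.00265). Ptgs2, the inducible cyclooxygenase, went the other way, with 2.61, 1.72, 3.44 and 4.44 in KC and 26.4, 28.3, 17.7 and 31.9 in MoMF (-2.76 ± 0.44, adjusted p = 1.55e-05). Hpgd, which inactivates prostaglandins, had 47, 51.5, 40.4 and 44.4 against 6.93, 7.45, 2.94 and 0.995 (3.28 ± 0.47, adjusted p = 2.42e-06). The libraries of the cell types were apart in all 3 genes, in opposite directions for the cyclooxygenases. Ltc4s, leukotriene C4 synthase, had 13.9, 6.87, 8.6 and 3.17 in KC and no read in any MoMF or Mo library of CBDL2w. Against a floor of 3 reads over the 4 MoMF libraries it was at least 13.4-fold higher in KC (adjusted p = 0.00128). Alox5ap, which presents arachidonic acid to its lipoxygenase, was higher in MoMF (-0.83, adjusted p = 0.000135).

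Of the 12 largest differences toward KC, several lay outside these groups. Dmpk, a protein kinase known from muscle, had 138, 108, 144 and 148 in KC and 1.89, 3.73, 13.7 and 7.96 in MoMF (4.37 ± 0.75, adjusted p = 5.14e-05). Cela1, an elastase, had 81, 69.5, 92 and 42.5 against 10.7, 6.71, 1.96 and 0 (4.1 ± 0.83, adjusted p = 0.000536). Serpinb6a, a serine protease inhibitor, differed by 4.03 ± 0.75 and the guidance protein Sema6d by 3.4 ± 0.47. For Serpinb6a, whose locus overlaps 3 genes on the opposite strand and whose family has near copies, reads may be shared. Beyond these, Tcf7l2, a Wnt pathway transcription factor, had 197, 234, 116 and 241 in KC and 65.5, 33.5, 44.1 and 40.8 in MoMF (2.06 ± 0.41, adjusted p = 0.000456). The formyl peptide receptor Fpr1 differed by 2.31 ± 0.42 and the integrin Itga9 by 1.99 ± 0.39. Wfdc17, a small secreted protein of macrophages, had 173, 151, 254 and 165 against 41.6, 44, 30.4 and 21.9 (2.42 ± 0.34, adjusted p = 1.24e-06).

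**Figure D3:**
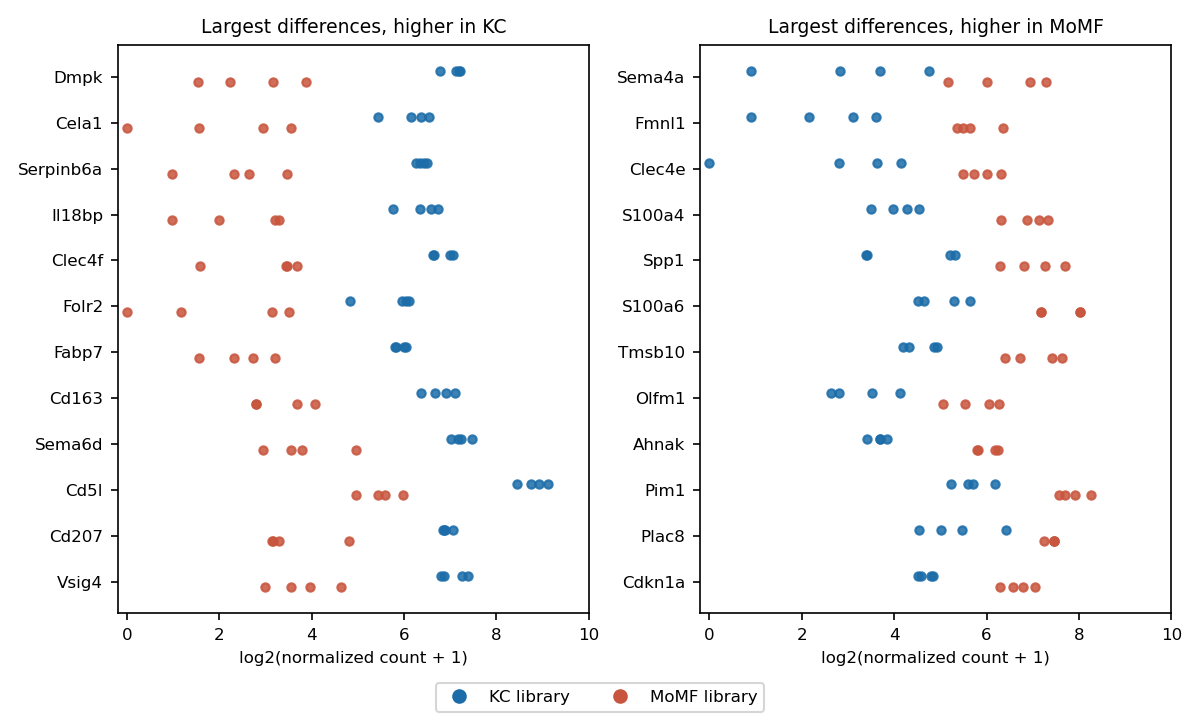
Level of the 12 genes with the largest differences each way in every CBDL2w library, as log2(normalized count + 1); blue points are KC libraries and red points MoMF libraries. The rule that chose these 24 genes required that the libraries not overlap, as in Dmpk (108 to 148 normalized counts in KC, 1.89 to 13.7 in MoMF) and S100a4 (10.3 to 22.3 in KC, 78.1 to 159 in MoMF).

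Toward MoMF, classical monocyte genes were the first group. All 21 were tested and 11 were higher in MoMF, none in KC (median -1.48). S100a4, a calcium-binding protein of motile cells (chr3:90603771-90606045, plus strand), had 14.8, 10.3, 22.3 and 18.4 in KC and 78.1, 116, 140 and 159 in MoMF (-2.83 ± 0.33, adjusted p = 3.33e-08); Mo had 187, 177, 247 and 281. Ccr2, the receptor that brings monocytes into tissue, had 118, 91.8, 90.3 and 127 in KC and 412, 310, 325 and 329 in MoMF (-1.69 ± 0.23, adjusted p = 1.24e-06), and 543, 364, 291 and 417 in Mo. Clec4e, the lectin Mincle, had 16.6, 0, 6.02 and 11.4 against 63, 52.2, 78.4 and 43.8 (-3.24 ± 0.62, adjusted p = 0.000246), and 182 to 286 in Mo. In S100a4 and Clec4e the levels stepped up from KC to MoMF to Mo with no overlap, and in Ccr2 MoMF and Mo overlapped. Plac8 differed by -2.05 ± 0.39 and Ms4a4c by -2.05 ± 0.36.

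Ly6c2 and Chil3, also on the monocyte list, did not pass. Ly6c2, the antigen by which these monocytes are named, had 4.36, 5.15, 4.3 and 1.27 in KC and 8.18, 3.73, 4.9 and 2.99 in MoMF (-0.34 ± 0.47, adjusted p = 0.81), beside 127, 152, 113 and 122 in Mo. Chil3 had 6.1, 3.43, 3.44 and 0.634 in KC and 3.78, 7.45, 11.8 and 3.98 in MoMF (-0.87 ± 0.66, adjusted p = 0.572), beside 124, 111, 131 and 120 in Mo. In both genes KC and MoMF overlapped, and every Mo library lay above both. Ly6c2 has a close copy, Ly6c1, with which reads may be shared.

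S100 proteins were higher in MoMF in 4 of 8 tested (9 listed, median -1.42). S100a4, S100a6, S100a8 and S100a9 are also on the classical monocyte list. S100a6 had 21.8, 24, 49 and 38 in KC and 144, 143, 258 and 260 in MoMF (-2.58 ± 0.29, adjusted p = 1.22e-08), and S100a11 differed by -2.48 ± 0.44. The neutrophil-related members S100a8 (0.4, adjusted p = 0.881) and S100a9 (-1.3, adjusted p = 0.476) did not pass. Cytoskeleton and motility genes were higher in MoMF in 4 of 15 tested (16 listed; median -0.37). Tmsb10, an actin-binding peptide, had 17.4, 29.2, 18.9 and 27.9 against 83.1, 104, 169 and 199 (-2.47 ± 0.33, adjusted p = 9.04e-07). Ahnak, a giant scaffold protein, had 9.58, 12, 12 and 13.3 against 54.8, 55.2, 74.5 and 71.7 (-2.35 ± 0.37, adjusted p = 1.5e-05). Actin itself, Actb, did not pass (0.1, adjusted p = 0.805). The formin Fmnl1, which builds actin filaments and stood among the 12 largest, had 3.49, 0.858, 11.2 and 7.61 in KC and 44.1, 40.3, 49 and 80.6 in MoMF (-3.27 ± 0.47, adjusted p = 2.65e-06). Sema4a, a semaphorin of immune cells, had the largest difference toward MoMF of the named genes: 6.1, 0.858, 12 and 26 in KC against 63, 35, 122 and 156 (-3.31 ± 0.73, adjusted p = 0.00152).

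Pim1, Cdkn1a and Olfm1 were also among the 12 largest toward MoMF. Pim1, a kinase induced by cytokines, had 36.6, 71.2, 51.6 and 47.6 in KC and 189, 239, 208 and 306 in MoMF (-2.18 ± 0.28, adjusted p = 5.12e-07), and 253 to 420 in Mo. Cdkn1a, the cell cycle inhibitor p21, had 21.8, 26.6, 27.5 and 22.8 against 94.4, 110, 77.5 and 132 (-2.01 ± 0.44, adjusted p = 0.00165), and 116 to 190 in Mo. Olfm1, a secreted olfactomedin protein, had 10.5, 6.01, 5.16 and 16.5 against 65.5, 45.5, 32.4 and 75.6 (-2.46 ± 0.42, adjusted p = 5.15e-05). Olfm1 was lower in Mo, at 18.5 to 36.9, than in most MoMF libraries, while Pim1 and Cdkn1a overlapped between Mo and MoMF.

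The list of patrolling monocyte genes did not move one way: of 14 tested (16 listed), 2 were higher in KC and 3 in MoMF (median -0.07). Nr4a1, a nuclear receptor these monocytes need and also an immediate early gene, had 37.5, 44.6, 74.8 and 75.5 in KC and 186, 183, 192 and 289 in MoMF (-1.89 ± 0.32, adjusted p = 3.64e-05). Ace, angiotensin-converting enzyme, had 0, 0.858, 0.86 and 0.634 against 8.18, 5.96, 9.81 and 24.9 (-2.91 ± 0.6, adjusted p = 0.000772), and 0.82 to 6.34 in Mo. Treml4, a receptor for dying cells, was higher in KC, with 29.6, 36, 35.2 and 28.5 against 15.1, 11.9, 11.8 and 9.95 (1.35 ± 0.35, adjusted p = 0.0104). The KC and MoMF libraries were apart in all 3 genes, and Ace stayed at or near 0 in KC. Spn, CD43, was called at -1.66, a call lost without KC replicate 2 or MoMF replicate 2, 3 or 4.

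Inflammatory mediators were higher in MoMF in 5 of 13 tested (16 listed; median -0.81), none in KC. Il1b, interleukin-1 beta, had 113, 84.1, 145 and 124 in KC and 354, 371, 454 and 552 in MoMF (-1.89 ± 0.29, adjusted p = 6.39e-06), and 365 to 657 in Mo. Osm, oncostatin M, had 4.36, 4.29, 4.3 and 5.71 against 13.2, 20.9, 18.6 and 14.9 (-1.65 ± 0.44, adjusted p = 0.0115). The neutrophil-attracting chemokine Cxcl2 had 76.7, 148, 277 and 271 in KC and 462, 467, 691 and 679 in MoMF (-1.72 ± 0.37, adjusted p = 0.00136). Every KC library stayed below every MoMF library in Cxcl2. Of 16 tested chemokines (21 listed; median -0.18), Cxcl2, Ccl3 and Ccl9 were higher in MoMF and Ccl6 in KC. The call for Ccl3 was lost without KC replicate 2 or MoMF replicate 3. Ccl9 had 7.84, 6.01, 15.5 and 8.24 in KC and 39, 35, 37.3 and 38.8 in MoMF (-1.97 ± 0.33, adjusted p = 3.72e-05). Ccl6 had 302, 285, 357 and 259 against 165, 157, 132 and 177 (0.93 ± 0.19, adjusted p = 0.000692). The monocyte attractant Ccl2 (0.15, adjusted p = 0.951), Tnf (-1.52, adjusted p = 0.15) and Il6 (-0.18, adjusted p = 0.956) did not pass.

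The promoters of S100a4 and Il1b are shown since both hold TATAAA, the TATA box, at the same distance; capitals mark it. The windows of 250 bases before the RefSeq start site are chr3:90603520-90603769 (plus) for S100a4 and chr2:129371140-129371389 (minus) for Il1b, on GRCm38.p6.
S100a4: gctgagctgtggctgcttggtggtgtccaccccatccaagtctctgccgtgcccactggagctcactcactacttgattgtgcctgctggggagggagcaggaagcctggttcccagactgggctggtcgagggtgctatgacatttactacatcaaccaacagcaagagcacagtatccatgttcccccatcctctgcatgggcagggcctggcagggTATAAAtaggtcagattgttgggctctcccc
Il1b: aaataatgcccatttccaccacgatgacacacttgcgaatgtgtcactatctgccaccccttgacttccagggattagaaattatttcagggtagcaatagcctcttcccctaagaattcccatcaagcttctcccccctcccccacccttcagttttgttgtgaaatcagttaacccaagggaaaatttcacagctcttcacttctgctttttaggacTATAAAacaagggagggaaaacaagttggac
In both, 25 bases lie between the match and the start site. The S100a4 window also holds AGGTCA, which is left unmarked. TATAAA, on either strand, stood in this window in 22 of 153 genes higher in MoMF with a promoter in the RefSeq table (14.4%), in 16 of 216 genes higher in KC (7.4%), in 6.6% of 5376 tested genes and in 13.0% of all 27025 promoters, 1 per gene. GAGGAA stood in 32.7%, 27.3%, 23.6% and 23.1% of the same sets, TGANTCA (bound by AP-1) in 5.9%, 6.0%, 4.5% and 6.9%, and AGGTCA in 13.1%, 13.0%, 10.8% and 13.8%. These shares are descriptions, with no test.

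Immediate early genes, which cells switch on within minutes of a stimulus and also while tissue is digested, were higher in MoMF in 12 of 23, none in KC (median -0.86). Socs3, an inhibitor of cytokine signalling, had 14.8, 16.3, 27.5 and 19 in KC and 74.9, 59.6, 83.4 and 92.6 in MoMF (-1.97 ± 0.34, adjusted p = 6.78e-05). The stress-induced repressor Atf3 had 27.9, 21.5, 43 and 33.6 against 128, 55.9, 130 and 159 (-1.82 ± 0.41, adjusted p = 0.002), and the growth inhibitor Btg2 39.2, 25.7, 38.7 and 46.9 against 97.6, 113, 120 and 123 (-1.59 ± 0.29, adjusted p = 0.000158). The libraries of the cell types were apart in all 3 genes. Fos passed at -1.18 and Jun at -0.86. Egr1 passed at -1.73, and its call was lost without KC replicate 1 or 2 or MoMF replicate 3 or 4. The heat shock genes of the list did not pass, as in Hspa1a (-0.62, adjusted p = 0.306) and Hspa8 (-0.06, adjusted p = 0.928). The whole list took 0.608% to 0.834% of reads in KC, 1.17% to 1.47% in MoMF and 1.09% to 1.26% in Mo; its part in the differences of Il1b, Cxcl2 and the other mediators was not tested.

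Matrix and clotting genes had 7 of 11 tested higher in MoMF and 2 in KC (15 listed; median -1.64). Spp1, osteopontin, a secreted matrix protein linked to scar-associated macrophages (chr5:104435118-104441050, plus strand), had 9.58, 38.6, 9.45 and 36.1 in KC and 111, 207, 152 and 77.6 in MoMF (-2.69 ± 0.59, adjusted p = 0.00143), and 34.2 to 124 in Mo. Fn1, fibronectin, had 135, 319, 143 and 331 against 652, 579, 804 and 580 (-1.6 ± 0.46, adjusted p = 0.0236), and 1420 to 1731 in Mo. KC libraries fell into a low and a high pair in both genes, and the call for Fn1 was lost without KC replicate 1 or 3 or MoMF replicate 3. F10, coagulation factor X, differed by -2.43 ± 0.68, with its call lost without KC replicate 3 or MoMF replicate 3 or 4. The heparan sulfate proteoglycan Sdc3 was higher in KC (131, 76.4, 113 and 138 against 25.8, 48.5, 29.4 and 14.9; 1.99 ± 0.38, adjusted p = 0.000282).

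Most other genes of lipid- and scar-associated macrophages did not pass. Of 18 tested, Spp1 and Fabp4 were higher in MoMF and Lpl in KC (median -0.18), beside 2.81% and 3.83% of all genes tested. Trem2, the lipid-sensing receptor that defines these cells, had 11.3, 27.5, 20.6 and 13.9 in KC and 25.2, 29.1, 15.7 and 12.9 in MoMF (-0.17 ± 0.56, adjusted p = 0.938). Gpnmb (6.1, 12, 10.3 and 6.97 against 10.1, 6.71, 7.84 and 9.95; 0 ± 0.65, adjusted p = 1) and Cd9 (8.71, 12, 12 and 4.44 against 12, 14.9, 9.81 and 6.97; -0.25 ± 0.52, adjusted p = 0.892) were low in both. Cd63, a tetraspanin of lysosomes, had 112, 196, 174 and 145 in KC and 68.6, 94.7, 79.4 and 28.9 in MoMF, with an adjusted p of 0.127. Fabp4 was called at -1.83, but its libraries overlapped and the call was lost without any of 6 of the 8 libraries.

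Most genes of antigen presentation and most Fc receptors did not pass. Among 12 tested class II genes (14 listed), Cd74, the invariant chain, and its regulator Ciita were higher in MoMF and none in KC (median -0.76), against 4 with edgeR or a pseudocount of 5 and 1 with no filter. Only 1 of the 12 had a positive difference. Over all genes tested, 2.81% were higher in MoMF. Cd74 had 547, 403, 376 and 323 in KC and 771, 893, 663 and 825 in MoMF (-0.95 ± 0.25, adjusted p = 0.0109), and its call was lost without KC replicate 4. Ciita (-1.03) lost its call without any of 7 libraries. H2-Ab1 did not pass, at 806, 622, 541 and 602 against 1191, 742, 1056 and 1125 (-0.67 ± 0.26, adjusted p = 0.113), while Mo had 171 to 296. Of 6 Fc receptors for antibodies, the inhibitory Fcgr2b was higher in MoMF (24.4, 38.6, 24.1 and 24.7 against 125, 106, 90.2 and 98.5; -1.89 ± 0.41, adjusted p = 0.0013) and the activating Fcgr3 in KC (190, 274, 222 and 220 against 152, 147, 117 and 96.5; 0.83 ± 0.18, adjusted p = 0.00175). Among 11 tested integrins (12 listed), Itgam, CD11b, was higher in MoMF (83.6, 155, 128 and 124 against 219, 262, 297 and 204; -1.01 ± 0.24, adjusted p = 0.00321), and Itgax, CD11c, did not pass (3.49, 1.72, 3.44 and 2.54 against 10.1, 8.2, 8.83 and 11.9; adjusted p = 0.0578).

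Cx3cr1, the fractalkine receptor often used to tell monocyte-derived from resident macrophages, did not separate the cell types at CBDL2w. It had 247, 256, 241 and 295 in KC and 318, 249, 301 and 298 in MoMF (-0.16 ± 0.31, adjusted p = 0.875), and 85.6 to 149 in Mo. The Cx3cr1 locus overlaps several annotated genes on both strands. Among 25 tested macrophage transcription factors (27 listed), 7 were higher in KC and 3 in MoMF, against 3 and 3 with no filter and 5 and 4 with edgeR. Their median of -0.01 had no stable sign (0.02 with edgeR, 0.11 with DESeq2). Runx3 was the largest toward MoMF, with 6.97, 8.58, 1.72 and 3.17 in KC and 36.5, 22.4, 24.5 and 48.8 in MoMF (-2.58 ± 0.41, adjusted p = 1.69e-05). Zeb2, a factor that keeps tissue identity in macrophages, had 167, 166, 140 and 204 against 244, 244, 176 and 210 (-0.37 ± 0.26, adjusted p = 0.534). Spi1, which encodes PU.1, did not pass (-0.04, adjusted p = 0.974).

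Several groups had no called member, beside 6.63% of all genes tested. At that share, lists this small can hold 1 called gene or none, so the counts in this paragraph are no result about the lists. None of 15 tested interferon response genes (26 listed), 15 interferon-inducible GTPases, 12 class I presentation genes, 10 Toll-like receptor genes (14 listed) or 7 glucocorticoid-induced genes (8 listed) passed. In that order, 0, 3, 2, 2 and 1 of them had an unadjusted p under 0.05, edgeR called 0, 1, 0, 0 and 0, and DESeq2 called 0, 1, 2, 0 and 1. Their median log2 differences were 0.21, 0.46, 0.25, 0.06 and 0.42; the sign for Toll-like receptors turned with edgeR (-0.09) and DESeq2 (-0.03). Of 15 tested glycolysis genes 1 passed, Hk3 (2.52, higher in KC), whose call was lost without KC replicate 1 or MoMF replicate 4. Of 13 tested cell cycle genes 1 passed, Mcm5, with 14.8, 4.29, 17.2 and 11.4 in KC and 7.56, 0, 1.96 and 0.995 in MoMF (adjusted p = 0.0337). Its libraries overlapped, it was called by neither edgeR nor DESeq2, and the call was lost without any of 6 libraries.

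Ribosomal protein genes were higher in MoMF in 13 of 86 tested (90 listed; median -0.38); the count was 6 with no filter, 14 with a pseudocount of 5, 19 at equal totals, 24 with edgeR and 23 with DESeq2. Rps9 had 470, 431, 444 and 392 in KC and 714, 756, 771 and 900 in MoMF (-0.85 ± 0.14, adjusted p = 3.64e-05). The ribosomal share of reads was 10.2% to 14.2% in KC and 14.5% to 17% in MoMF. The 16 called processed pseudogenes were higher in MoMF, 2.45% of the 654 tested beside 2.81% of all genes tested; such copies can share reads with their parent genes and are uncertain. Genes of the mitochondrial genome were higher in KC in 6 of 15 tested (32 listed; median 0.67), with 3 in edgeR and 3 with no filter. mt-Co1 had 1081, 554, 625 and 713 in KC and 430, 398, 376 and 339 in MoMF (0.9 ± 0.22, adjusted p = 0.00491), and its call was lost without KC replicate 1, the highest library. Mitochondrial shares of reads, 3.95% to 6.3% in KC and 2.32% to 4.11% in MoMF, overlapped.

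**Figure D4:**
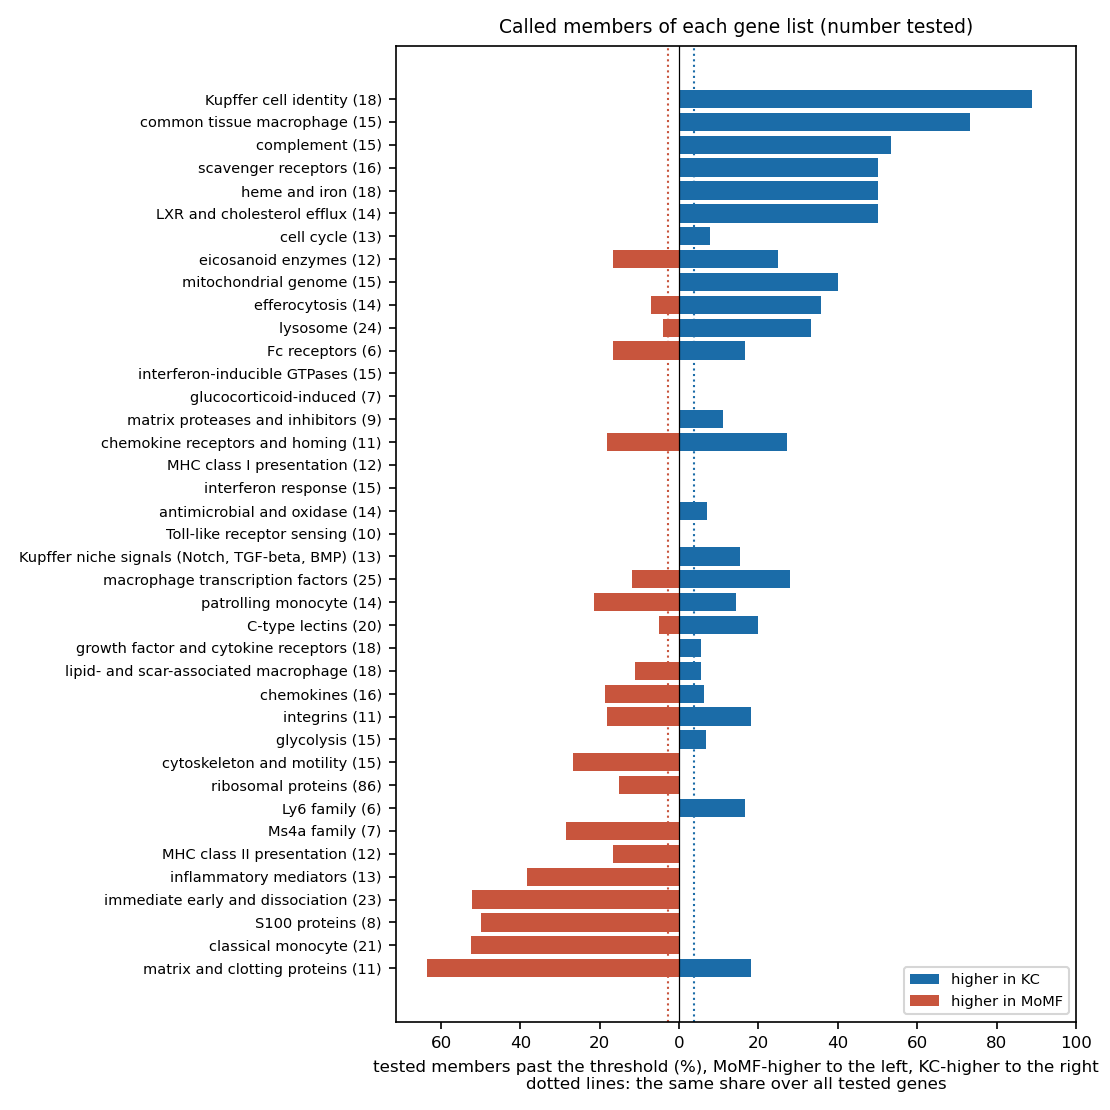
Share (%) of the tested members of each of 39 gene lists that passed the test at CBDL2w, ordered by median log2 difference; bars to the right are members higher in KC, bars to the left members higher in MoMF, and dotted lines mark 3.83% and 2.81% of all tested genes. Kupffer cell identity (16 of 18) and common macrophage genes (11 of 15) reach farthest to the right, and matrix and clotting (7 of 11), classical monocyte (11 of 21) and immediate early genes (12 of 23) farthest to the left. List members were chosen with earlier results of these data known.

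The same contrast was then read in controls. At Sham6w, 1204 of 7555 genes (15.9%) differed between KC and MoMF, 688 higher in KC and 516 higher in MoMF. Of the 501 genes called at CBDL2w, 343 (68.5%) were called at Sham6w in the same direction, which is 28.5% of the control calls, and 1, Mcm5, in the opposite direction. Across all tested genes the 2 differences, which share no library, correlated with r = 0.508, a description without a test since genes are not independent replicates. A larger difference in one condition is shown only by a test of the difference of differences. That test passed for 26 genes (0.344%): 18 in which KC minus MoMF was more positive at CBDL2w than in controls, and 8 in which it was more negative. On 1 simulated data set it recovered 2% of 2-fold and 29.3% of 4-fold changes, with 13.9% of its calls false. The simulation gave each gene the same spread in all libraries, so these rates leave out a library that deviates from its group. Controls were taken at 6 weeks, so ligation and time cannot be told apart here. The control MoMF library with labels 1, 2 and 5 joined had 118687 reads, against 272554 and 294183 in the other 2, and correlated with them at 0.664 and 0.676 across genes, where those 2 correlated at 0.811. Leaving out 1 library at a time moved the count of 26 by over 1.5 times in several cases. It was 17, 89 and 56 without the control MoMF library 1+2+5, 3 and 4+6, 14 without control KC replicate 2, 13 and 17 without CBDL2w KC replicate 1 and 3, and 15 without CBDL2w MoMF replicate 1, 3 or 4. Fitted on the compared groups alone the test passed for 1 gene, Clec1b.

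Of the named genes that passed, Lyz1 and Anxa2 kept their calls with each single library left out, though neither passed on the compared groups alone. Lyz1, a lysozyme, had 77.5, 71.2, 106 and 91.9 in KC and 141, 104, 109 and 97.5 in MoMF at CBDL2w, and 74.5, 70.9, 80.4 and 55.6 in KC and 9.91, 36.9 and 22.6 in MoMF of controls. KC levels overlapped between the conditions while MoMF levels did not, so that the control difference of 1.73 ± 0.27 stood against -0.38 ± 0.25 (difference -2.11 ± 0.37, adjusted p = 0.00422). Lyz1 has a close copy, Lyz2. Anxa2, annexin A2, had 17.4, 15.4, 27.5 and 43.8 in KC and 42.8, 50.7, 52 and 47.8 in MoMF at CBDL2w, and 3.19, 10.9, 1.99 and 7.47 against 131, 81.5 and 46.2 in controls. Its difference went from -3.75 ± 0.38 in controls to -0.98 ± 0.35 (difference 2.77 ± 0.51, adjusted p = 0.00476), with KC libraries of CBDL2w all above those of controls.

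Cx3cr1 separated the cell types in controls, where KC had 71.3, 21.8, 11.9 and 18.3 and MoMF 337, 71.7 and 99.2 (-2.41 ± 0.33). All 4 KC libraries of CBDL2w, at 241 to 295, lay above those of controls; the difference of differences was 2.25 ± 0.45 (adjusted p = 0.00958) and was lost without the shallow control MoMF library. Spp1 was near the detection limit in controls, with 0.83 to 4.26 in KC and 0, 0 and 3.93 in MoMF, and its difference of differences was -3.58 ± 0.86 (adjusted p = 0.0388). That call was lost without any of 10 of the 15 libraries and with edgeR and DESeq2. Fth1 had 1399, 1655, 1759 and 1749 in KC and 188, 783 and 1042 in MoMF of controls (difference of differences -1.98 ± 0.4, adjusted p = 0.00958), a call lost without the same shallow library, which holds the lowest value. Dab2, an endocytic adaptor, went from 2.6 ± 0.35 in controls to 0.53 ± 0.32 (-2.07 ± 0.48, adjusted p = 0.0277), a call lost without any of 8 of the 15 libraries. Genes of chromatin and division, Hmgn2 (2.42), Hmgb2 (1.99), Hist1h2ap (2.82), Birc5 (4.01) and Mcm5 (4.08), were among the 18, and 3 of 13 tested cell cycle genes passed; the calls of all 5 were lost without the shallow control library, among others. In control MoMF, natural killer markers took 0.0118% to 0.0565% of reads and B and plasma cell markers 0.0767% to 0.32%, above the 0.00499% to 0.0154% and 0.00633% to 0.0189% of MoMF at CBDL2w; the part of such cells in these differences was not tested.

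The Kupffer cell genes themselves gave no call in that test (0 of 18; median 1.06, against -0.068 over all genes). Of the 18 differences of differences 17 were positive, beside 3503 of 7555 over all genes. The test called 0.344% of all genes, so 0 of 18 does not show that the gap was unchanged. The Kupffer cell genes' share of KC reads was 1.17% to 1.28% in controls and 0.572% to 0.737% at CBDL2w, and their share of MoMF reads 0.148% to 0.475% and 0.0809% to 0.136%. Clec4f, for example, had 464, 497, 432 and 420 in control KC and 29.7, 114 and 91.3 in control MoMF; both cell types stood lower at CBDL2w, and the log2 gap of 2.72 ± 0.71 in controls did not differ from that at CBDL2w beyond its error (1.07 ± 0.97, adjusted p = 0.744). Clec1b came nearest, with 103, 69.7, 88.3 and 73.9 in KC and 22.3, 33.7 and 30.4 in MoMF of controls (2.9 ± 0.72, adjusted p = 0.0507). Classical monocyte genes took 0.0755% to 0.102% of KC reads in controls and 0.231% to 0.304% at CBDL2w. In MoMF they took 0.188% to 0.292% and 0.65% to 0.777%, so KC of CBDL2w overlapped control MoMF in this share.

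**Figure D5:**
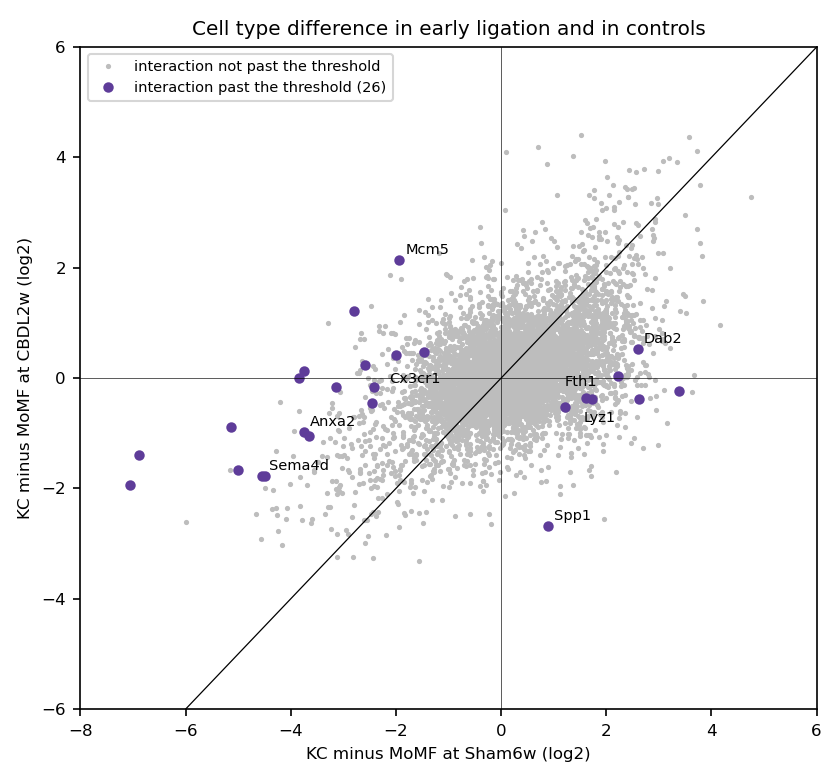
Log2 difference KC minus MoMF of each tested gene in controls (Sham6w, x) and at CBDL2w (y), with the line of equal differences; purple points are the 26 genes whose difference changed between the conditions by the interaction test. Spp1 lies below the line with -2.69 at CBDL2w and 0.89 in controls, and Cx3cr1 and Anxa2 lie above it.

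Against advanced ligation, no difference of differences passed (0 of 7555, 0.0%; limma). The smallest adjusted p was 0.205, and 388 genes had an unadjusted p under 0.05; edgeR called 0 and DESeq2 2. Apoe, with the smallest p, had 3042, 2824, 2861 and 2645 in KC and 469, 344, 425 and 414 in MoMF at CBDL6w, so that MoMF of CBDL2w, at 874 to 1075, stood above MoMF of CBDL6w while KC overlapped (-1.46, adjusted p = 0.205). DESeq2 called Apoe and Bfar, and a fit on the compared groups alone called Apoe; without CBDL2w MoMF replicate 1 limma called 1 gene, Max. Bfar and Max were named after their values were seen. Spp1 in MoMF stood at 34.3, 31.7, 24 and 21.8 at CBDL6w, below the 77.6 to 207 at CBDL2w, with KC at 0.96 to 13.9. Cx3cr1 overlapped between KC (251, 427, 280 and 297) and MoMF (222, 286, 240 and 210) at CBDL6w as well. The count of 0 does not show that the stages were alike.

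Reads of some named genes cannot be assigned with certainty. Of the 137 genes named by the rule, 24 overlap another annotated gene on the same strand and 41 on the opposite strand, and the strand setting of the counting is not given in the sources used here.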

How the data were processed

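RNA was sequenced by 3′ tag libraries with molecular identifiers (QuantSeq), per the labels' protocols. UMI-tools 1.0.1, Trimmomatic 0.39, STAR 2.7.5b, RSEM 1.3.1, DESeq2 and build GRCm38.p6 are named in the submitters' processing notes. The authors deposited 1 table of normalized counts (a signal: reads divided by a size factor per library) for 58 libraries and 25307 genes. Dividing by what 1 read is worth gave whole reads for 100% of values within 0.01, with size factors of 0.404 to 1.675. Depths of 118687 to 521954 reads limit low genes. Gene positions came from GENCODE M21, which matched 25272 genes, and promoters from RefSeq (GRCm38.p6).

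Genes with at least 10 normalized counts in at least 3 libraries were tested with limma 3.58.1 under R 4.3.3, with a trended and robust prior, after log2 transformation of the normalized count + 1. A single fit held 15 groups, was two-sided, and p-values were Benjamini-Hochberg adjusted over all tested genes with a threshold of 0.05. Differences between conditions were tested as interactions. Alternatives were edgeR 4.0.16 and DESeq2 1.42.0 on recovered reads, a pseudocount of 5, no filter, equal totals, the compared groups alone, single replicate numbers only, a replicate block and each library left out. The fit was tested on simulated data with 200 changed genes. Named genes were the 12 largest each way (mean of at least 50, no overlap), up to 4 called members of each list, fixed markers, and the largest 8 interactions each way. Members and lists were chosen with earlier results of these data known. Lists share members, so their counts are not separate results. Some genes of the lists are not reported here. Fold changes on this scale understate those of low genes.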

Additional observations from a re-analysis of the deposited data

Results flagged for a closer look

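In 9 of 220 groups of 4 libraries checked, 1 library lay far from the other 3 by Dixon's test; chance gives about 1 in 20. Among KC libraries of CBDL2w these were Osm in replicate 4 (5.71 normalized counts), Fcgr2b in replicate 2 (38.6), the B and plasma cell share in replicate 1 (0.00811%) and the total in replicate 4 (452668 reads). Among MoMF libraries of CBDL2w they were Clec1b in replicate 2 (2.98), Nr4a1 in replicate 4 (289) and Anxa1 in replicate 2 (68.6). The immediate early share of Mo replicate 2 was low (1.09%), and Cx3cr1 in control KC replicate 1 was high (71.3).

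The difference between KC and MoMF at CBDL2w departed from that in controls, by limma's interaction test, in 15 named genes. It was more positive at CBDL2w for Mcm5 (4.08), Birc5 (4.01), Spn (3.34), Hist1h2ap (2.82), Anxa2 (2.77), Sema4d (2.76), Hmgn2 (2.42), Cx3cr1 (2.25) and Hmgb2 (1.99), on the log2 scale. It was more negative for Spp1 (-3.58), Tfe3 (-3.0), Lyz1 (-2.11), Dab2 (-2.07), Fth1 (-1.98) and Sem1 (-1.74). Adjusted p ranged from 0.00422 (Lyz1) to 0.0388 (Spp1). None of the 15 passed in a fit on the compared groups alone, where the only gene to pass was Clec1b. Sema4d, a semaphorin that signals between immune cells, had 1.06, 2.43, 0 and 0 in control KC and 79.2, 33.7 and 18.7 in control MoMF, and 8.71, 16.3, 16.3 and 17.1 against 49.1, 42.5, 58.8 and 54.7 at CBDL2w. Its call was lost without the control MoMF library 1+2+5.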

How the results depend on the processing

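Between KC and MoMF at CBDL2w, 501 genes passed; 564 did with a pseudocount of 5, 352 with no filter, 504 at equal totals, 546 with edgeR (271 higher in KC, 275 in MoMF), 655 with DESeq2 and 523 on the compared groups alone. With each library left out the count was 322 to 479. Deviations of samples with the same replicate number correlated weakly (r 0.062, 0.011, 0.039 and 0.04, all under 0.1; 3 of 4 KC libraries correlated best with their own number). The main fit does not take the numbers as pairs, though such correlations cannot exclude that they are. With a replicate block, fitted on the compared groups alone, the count was 582, beside 523 on those groups without the block. Against controls the count of 26 became 30 with a pseudocount of 5, 36 with no filter, 28 at equal totals, 17 with edgeR, 35 with DESeq2, 1 on the compared groups alone, 11 with single replicate numbers only and 13 to 89 with each library left out (89 and 56 without the control MoMF library 3 or 4+6). Against CBDL6w the count of 0 stayed 0 except for 1 on the compared groups alone and 2 with DESeq2, and with each library left out it was 0 to 1; with a replicate block it was 0. The cause of these changes was not tested. No named gene changed direction while called. Among the 137 named genes, 4 lost their call at CBDL2w with edgeR, 1 with DESeq2 and 14 with no filter. The 137 include genes not called there, such as Id3 and Trem2, so they are not the number of calls at risk. Depth limits low genes, and 20% of simulated 2-fold changes were recovered.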
